A study of Mus musculus with 1931 samples.

Results

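The genes described here are 10 effectors and targets of the Hippo pathway, out of 20999 genes with a deposited value. They were chosen by name: the kinases *Lats1* and *Lats2*, the coactivators *Yap1* and *Wwtr1*, the DNA-binding partners *Tead1*, *Tead2* and *Tead4*, and the targets *Ctgf*, *Cyr61* and *Amotl2*. All 10 were found in the table, and each was followed in single cells of 6 groups.

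The Hippo pathway is a kinase cascade that responds to cell contact, cell polarity and tension of the actin cytoskeleton. Its kinases LATS1 and LATS2 phosphorylate YAP and TAZ (the products of *Yap1* and *Wwtr1*), which are then kept in the cytoplasm or degraded. Unphosphorylated YAP and TAZ enter the nucleus, bind TEAD proteins and switch on genes such as *Ctgf* and *Cyr61*. In the early mouse embryo the outer cells carry nuclear YAP, which together with TEAD4 drives the trophectoderm, whereas the inner cells keep YAP out of the nucleus. Messenger RNA reports the supply of these proteins and the output of the targets, and neither phosphorylation nor localization was measured.

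The cells came from Rosette-to-Lumen stage embryoids (RtL-embryoids), in which 3 mouse ESC lines were aggregated in agarose microwells, and from flat cultures. Kermit ESCs carry GFP behind the *Oct3/4* promoter, 5-Factor ESCs carry 5 transgenes that doxycycline (DOX) induces (*Eomes*, *Cdx2*, *Gata3*, *Ets2* and *Tfap2c*), and iGATA6 ESCs carry a DOX-induced *Gata6* transgene and mCherry. The aggregates received 2 µg/ml DOX, which was then withdrawn, so that the Epi-like, VE-like and ExE-like cells all came from medium that had held the drug. Structures were pooled, dissociated and sorted as GFP+, mCherry+ or CD40+ single cells onto plates 3, 4 and 5. In 2D, Kermit ESCs were kept in 2i/LIF without DOX (plate 7), iTSC were made from 5-Factor ESCs in trophoblast stem cell medium on gelatin (plate 8), and iXEN cells from iGATA6 ESCs in XEN medium (plate 9). Both reprogrammed cultures had also received DOX that was then withdrawn. The labels do not give the sort gate of a well, and the 3D groups are therefore the wells of columns 1 to 8 (called Epi), 9 to 16 (VE) and 17 to 24 (ExE). Each group is 1 pool or 1 culture, the plates are technical splits, and no test or p-value was possible. Plate, culture and growth in 3D or 2D cannot be told apart.

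A cell was retained if 2500 or more genes had a value above 0, which left 1406 of 1931 wells: 314 Epi, 315 VE and 353 ExE cells in 3D, and 142 ESC, 141 iTSC and 141 iXEN cells in 2D. The median number of genes above 0 was 4823 to 5396 in the 3D groups and 8537 to 9093.5 in 2D, so a weakly expressed gene was found in fewer 3D cells. Checked against markers of the 3 lineages, 313 of 314 Epi, 311 of 315 VE, all 142 ESC and all 141 iXEN cells were led by the markers of their own name. The ExE block was mixed, with 265 cells led by ExE, 54 by VE and 34 by Epi markers, and 41 of 141 iTSC were led by Epi markers. *Cdx2*, *Gata3*, *Eomes*, *Tfap2c* and *Ets2* among the ExE markers, and *Gata6* among the VE markers, are also transgenes of these lines. Levels are given as TP10k, that is TPM rescaled to 10000 per cell, which is corrected for transcript length and can be compared between genes. A gene passed when its mean TP10k differed at least 2-fold and, where 3D cells took part, in the same direction on all plates.

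TEAD proteins bind the letters CATTCC, which read GGAATG on the opposite strand. Because *Cyr61* and *Amotl2* differed widely between the groups and *Yap1* little, the 150 bases before their start sites are shown here 5′ to 3′ (RefSeq, GRCm38.p6), with that motif in capitals. The stretches are chr3:145649986-145650135 (minus strand) for *Cyr61*, chr9:102717654-102717803 (plus strand) for *Amotl2* and chr9:8004597-8004746 (minus strand) for *Yap1*.
Cyr61: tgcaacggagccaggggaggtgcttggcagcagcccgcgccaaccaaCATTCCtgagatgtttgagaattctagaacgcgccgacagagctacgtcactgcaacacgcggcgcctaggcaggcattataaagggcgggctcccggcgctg
Amotl2: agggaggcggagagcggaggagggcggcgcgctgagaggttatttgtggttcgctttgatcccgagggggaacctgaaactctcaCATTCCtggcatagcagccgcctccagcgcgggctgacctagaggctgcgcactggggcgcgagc
Yap1: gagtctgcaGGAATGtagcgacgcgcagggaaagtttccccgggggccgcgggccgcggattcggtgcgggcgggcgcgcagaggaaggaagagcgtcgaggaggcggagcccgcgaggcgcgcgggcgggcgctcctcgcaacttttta

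The motif begins 103 bases before the start site of *Cyr61*, 65 before that of *Amotl2* and 141 before that of *Yap1*. Promoters of 300 bases (250 before and 50 after the start) were on hand for 7 of the 10 genes, and not for *Ctgf*, *Tead1* and *Tead4*. Of the 7 genes, 5 held the motif on either strand. Counted by promoter it was 6 of 9, beside 14.7% of all 32851 such promoters. *Wwtr1*, in 2 overlapping promoters, and 1 of the 2 promoters of *Lats2* were the others with it, and *Tead2* and *Lats1* held none. In *Lats2* it began at base 5 after the start. A match of 6 letters is a description of the sequence and was not tested for binding. It stood before *Yap1*, the gene of the 10 that varied least, as it did before *Cyr61* and *Amotl2*.

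*Lats1* and *Lats2* encode the kinases that restrain YAP. *Lats1* (chr10:7681214-7716460, plus strand) was expressed at a low level throughout, with 0.0518, 0.0489 and 0.0359 TP10k in Epi cells of plates 3, 4 and 5, 0.0656, 0.0634 and 0.0565 in VE cells, and 0.0531, 0.0571 and 0.0723 in ExE cells. The 2D means were 0.0371 in ESC, 0.0236 in iTSC and 0.065 in iXEN cells. *Lats1* thus lay within the spread of the plates in VE cells and iXEN cells, and in ExE cells of all plates it exceeded iTSC, by 2.57-fold in the mean (2.25 to 3.07 per plate). By the share of cells above 0 the order was the opposite, 30.3% of ExE cells (95% interval 25.6 to 35.4%) against 47.5% of iTSC (39.1 to 56.1%). The median among cells above 0 was 0.137 in ExE cells and 0.0381 in iTSC, so fewer 3D cells held higher values.

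*Lats2* (chr14:57689662-57758388, minus strand), which is itself a YAP target and closes a feedback loop, was more variable. Its mean TP10k on plates 3, 4 and 5 was 0.0022, 0.00402 and 0.0251 in Epi cells, 0.0533, 0.0306 and 0.0204 in VE cells and 0.0469, 0.0836 and 0.0792 in ExE cells. In 2D it was 0.0275 in ESC, 0.106 in iXEN cells and 0.19 in iTSC, which was the highest of all. Only 6 of 314 Epi cells were above 0 (1.91%, interval 0.704 to 4.11%), and 1 cell held 80.3% of their summed level. Without that cell the Epi mean was 0.00209, a value taken after the data were seen. Every 3D group was below its 2D counterpart on every plate, by 2.61-fold for Epi against ESC (1.1 to 12.5), 2.73-fold for ExE against iTSC (2.27 to 4.04) and 2.98-fold for VE against iXEN (1.98 to 5.17). The Epi call turned on single plates: the log2 ratio to ESC was −1.38 over all plates, −3.13 without plate 5, which held the highest cell, −0.92 without plate 3 and −0.98 without plate 4. Against ExE cells the Epi log2 ratio was −2.72, and −4.37 without plate 5.

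*Yap1* (chr9:7931999-8004596, minus strand), the central coactivator, was the most even of the 10 genes. Mean TP10k on the 3 plates was 0.331, 0.296 and 0.231 in Epi cells, 0.33, 0.312 and 0.347 in VE cells and 0.429, 0.392 and 0.319 in ExE cells. ESC had 0.378, iTSC 0.391 and iXEN cells 0.339. From the highest to the lowest group (iTSC, ExE, ESC, iXEN, VE, Epi) no neighbours were separated by more than the plates, and for ESC and iXEN the spread is unknown. In none of the 9 comparisons did *Yap1* reach 2-fold.

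*Wwtr1* (chr3:57455649-57575910, minus strand), which encodes the YAP paralog TAZ, followed the endoderm. VE cells had 0.277, 0.276 and 0.324 TP10k, against 0.0779, 0.0985 and 0.104 in Epi cells and 0.12, 0.148 and 0.157 in ExE cells. The VE plates did not overlap with either of the other blocks, and the VE mean was 3.1-fold that of Epi (2.81 to 3.55) and 2.06-fold that of ExE (1.86 to 2.31). Restricted to cells led by their own markers, VE over ExE was 0.94 on the log2 scale and no longer 2-fold. In 2D the order of the lineages was iXEN (0.377), ESC (0.199) and iTSC (0.12). Epi cells were 2.13-fold lower than ESC (1.91 to 2.56), a log2 ratio of −1.09 that was −0.98 without plate 3, whereas VE and iXEN, and ExE and iTSC, differed by less than 2-fold.

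The TEAD factors carry YAP and TAZ to DNA. *Tead2* (chr7:45215753-45233644, plus strand) was the most abundant of the 3 in every group except iTSC, where it was level with *Tead4* (0.595 and 0.581) and below it in the 100 cells led by ExE markers (0.559 and 0.683). It averaged 1.34, 1.39 and 1.55 TP10k in Epi cells, 1.15, 0.945 and 1.18 in VE cells and 0.785, 1.01 and 0.583 in ExE cells. All Epi plates lay above all plates of the other blocks, and the 2D order was the same, ESC 1.2, iXEN 0.738 and iTSC 0.595. The 2.01-fold excess of ESC over iTSC was its sole difference past 2-fold, and in cells with 6000 to 8500 genes it was 1.95-fold and no longer passed.

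*Tead1* (chr7:112679318-112906807, plus strand) stayed between 0.219 and 0.463 TP10k on every plate and in every culture. It did not pass 2-fold in any comparison. *Tead4* (chr6:128224288-128300823, minus strand), the TEAD of the trophectoderm, differed more. Its values were 0.114, 0.0519 and 0.0579 in Epi cells, 0.305, 0.241 and 0.258 in VE cells and 0.134, 0.22 and 0.0996 in ExE cells. Among 3D cells it was thus highest in the VE block, 3.63-fold above Epi (2.67 to 4.64). The 2.05-fold excess of ExE over Epi (log2 ratio of Epi to ExE −1.03) rested on plate 4, without which it was −0.46, and was −1.55 without plate 3. In cells with 6000 to 8500 genes it was −0.98. In 2D it was highest in iTSC (0.581), with 0.33 in iXEN cells and 0.141 in ESC.

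ExE cells held 3.84-fold less *Tead4* than iTSC (2.64 to 5.84), and the 265 ExE cells led by ExE markers had 0.156 TP10k against 0.683 in the 100 iTSC led by them. Within iTSC the 41 cells led by Epi markers had 0.332. Within the ExE block, 180 cells with at least 2 of *Cdx2*, *Elf5* and *Eomes* had 0.169, 0.272 and 0.146 on the 3 plates, and 71 cells with none had 0.0713, 0.201 and 0.0771. Cells with these genes, of which *Cdx2* and *Eomes* are also transgenes, were higher on each plate, by 1.63-fold in all, with a median of 5826 genes above 0 against 4761. The part that the number of genes has in this difference was not tested.

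**Figure D1:**
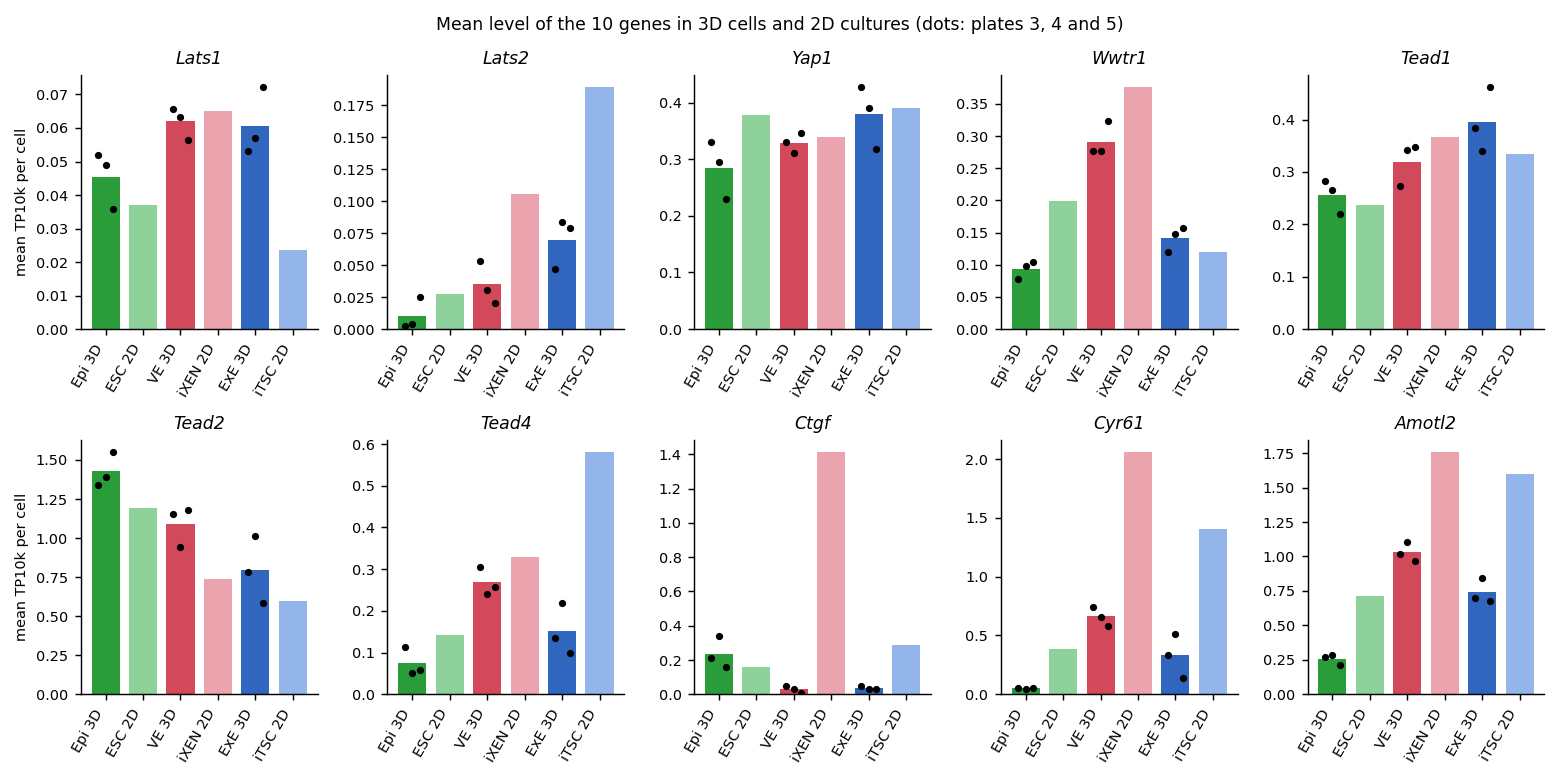
Mean TP10k per cell (y axis, linear from 0, own scale per gene) of the 10 genes in the 3D groups (dark bars) beside the 2D culture of the same lineage (pale bars), with dots for plates 3, 4 and 5. *Yap1* stays between 0.231 and 0.429 in every bar and dot, whereas *Cyr61* runs from 0.0455 on an Epi plate to 2.06 in iXEN cells.

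The targets read out YAP and TAZ together with TEAD. *Ctgf* (named *Ccn2* in current annotation, chr10:24595442-24598683, plus strand) encodes a secreted matricellular protein and is the standard readout of YAP activity. In Epi cells it averaged 0.211, 0.339 and 0.162 TP10k on plates 3, 4 and 5, in VE cells 0.0506, 0.029 and 0.00497, and in ExE cells 0.0503, 0.033 and 0.0317. The Epi plates stood clear of all others, 8.14-fold above VE (4.17 to 32.6) and 6.17-fold above ExE (4.19 to 10.3). The log2 ratio to VE, 3.03, was 3.84 without plate 3.

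*Ctgf* was above 0 in 88 of 314 Epi cells (28%, interval 23.1 to 33.3%), 26 of 315 VE cells (8.25%, 5.46 to 11.9%) and 31 of 353 ExE cells (8.78%, 6.04 to 12.2%). Among the 9 comparisons, VE against ExE in 3D is the one in which *Ctgf* was left out, because it was found in under 10% of both. The highest Epi cell (10.4) held 14% of the summed level. In 2D the order was reversed, with 0.158 in ESC, 0.287 in iTSC and 1.41 in iXEN cells, in which 85 of 141 cells were above 0 and the 15 highest cells held 66.6% of the sum.

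*Cyr61* (named *Ccn1* in current annotation, chr3:145646976-145649981, minus strand), a relative of *Ctgf* with the same type of secreted product, had the opposite order among the 3D cells. Epi cells had 0.0505, 0.0455 and 0.0529 TP10k, VE cells 0.744, 0.66 and 0.58, and ExE cells 0.338, 0.515 and 0.135. VE cells were above Epi cells by 13.4-fold (11 to 14.7) and above ExE cells by 2.01-fold (1.28 to 4.29), which was 1.97-fold in cells with 6000 to 8500 genes. *Cyr61* was above 0 in 9.24% of Epi cells (6.27 to 13%), 57.5% of VE cells (51.8 to 63%) and 31.7% of ExE cells (26.9 to 36.9%). In the ExE block the 54 cells led by VE markers averaged 0.829 and the 265 led by ExE markers 0.24. In 2D the values were 0.384 in ESC, 1.41 in iTSC and 2.06 in iXEN cells.

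*Amotl2* (chr9:102716672-102733418, plus strand) encodes a junctional protein of the angiomotin family that binds YAP and holds it back, and is itself switched on by YAP. Epi cells had 0.268, 0.286 and 0.211 TP10k, VE cells 1.02, 1.1 and 0.966, and ExE cells 0.702, 0.842 and 0.679. The 3 blocks did not overlap, and VE was 4.05-fold (3.8 to 4.59) and ExE 2.91-fold (2.62 to 3.22) above Epi. In cells with 6000 to 8500 genes above 0 these became 2.2-fold and 1.42-fold, and the excess of ExE over Epi no longer passed. ESC had 0.716, iTSC 1.6 and iXEN cells 1.76, so the Epi-like or ES cells came last in both 3D and 2D, as for *Cyr61*, while iXEN cells and iTSC differed by less than 2-fold in both genes.

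Among the 3D blocks, 1 of the 10 genes was higher (*Ctgf*) and 4 were lower (*Cyr61*, *Amotl2*, *Tead4*, *Wwtr1*) in Epi than in VE, where of all genes 16.3% were higher and 16.3% lower. Against ExE, Epi was higher in 1 (*Ctgf*) and lower in 4 (*Cyr61*, *Lats2*, *Amotl2*, *Tead4*), beside 8.98% and 15.5% of all genes. VE exceeded ExE in 2 genes of 9 tested (*Wwtr1*, *Cyr61*) and was lower in 0, beside 8.86% and 15.5%. Over all plates both lay close to the 2-fold line. The log2 ratio of *Cyr61* was 1.01 over all plates, 0.93 without plate 3, 1.48 without plate 4 and 0.73 without plate 5. That of *Wwtr1* was 1.04, and 0.97, 1.12 and 1.05 without plates 3, 4 and 5. In cells led by their own markers it was 1.48 for *Cyr61* and 0.94 for *Wwtr1*. On TPM as deposited neither passed. The median log2 ratio of the 10 genes was −1.04 for Epi against VE and −0.61 for Epi against ExE. For VE against ExE it was 0.46 over the 9 tested, which leaves out *Ctgf* (−0.40). That of all genes tested was 0.07, −0.10 and −0.15.

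In the flat cultures, ESC had less *Lats2*, *Tead4*, *Cyr61* and *Amotl2* than either other line. Against iTSC, ESC was higher in 1 gene (*Tead2*) and lower in *Lats2* (6.9-fold), *Tead4* (4.12-fold), *Cyr61* (3.67-fold) and *Amotl2* (2.23-fold), where 11.1% of all genes were higher and 22.3% lower. Against iXEN cells, ESC was lower in 5 of 10, namely *Ctgf* (8.95-fold), *Cyr61* (5.37-fold), *Lats2* (3.85-fold), *Amotl2* (2.45-fold) and *Tead4* (2.34-fold), and higher in 0, beside 20.4% and 19.2% of all genes. iTSC were lower than iXEN cells in *Ctgf* (4.92-fold), *Wwtr1* (3.14-fold) and *Lats1* (2.75-fold), and higher in 0, beside 12.2% and 21.1%. These cultures have 1 plate each, and the spread between cultures is unknown.

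The comparison of each 3D block with the 2D culture of its lineage asks how these genes stand in the embryo model beside the flat stem cells. *Cyr61* was lower in 3D for all lineages, by 7.74-fold in Epi cells (7.26 to 8.43 per plate), 4.26-fold in ExE cells (2.74 to 10.4) and 3.1-fold in VE cells (2.77 to 3.55). *Amotl2* was lower by 2.81-fold in Epi cells (2.5 to 3.4) and 2.16-fold in ExE cells (1.9 to 2.36), and by 1.7-fold in VE cells (1.59 to 1.82), which does not pass. *Ctgf* was 48.4-fold lower in VE than in iXEN cells (27.9 to 284) and 7.44-fold lower in ExE cells than in iTSC (5.7 to 9.04). The VE value, from 26 cells above 0, was −5.60 on the log2 scale and −6.33 without plate 3. In Epi cells *Ctgf* was 1.51 times the ESC level (1.02 to 2.14), below the 2-fold line.

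Counted over the 10 genes, 4 were lower in Epi cells than in ESC (*Cyr61*, *Amotl2*, *Lats2*, *Wwtr1*) and 0 higher, beside 9.21% of all genes lower and 11.1% higher. In ExE cells 5 were lower than in iTSC (*Ctgf*, *Cyr61*, *Tead4*, *Lats2*, *Amotl2*) and 1 higher (*Lats1*), beside 14.5% and 10.2%. In VE cells 3 were lower than in iXEN cells (*Ctgf*, *Cyr61*, *Lats2*) and 0 higher, beside 8.92% and 4.38%. The median log2 ratio of the members was −0.67, −0.57 and −0.33, and that of all genes tested 0.13, 0.02 and 0.02. *Lats2* and *Cyr61* passed in all of the 3 comparisons, and *Yap1*, *Tead1* and *Tead2* in none.

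**Figure D2:**
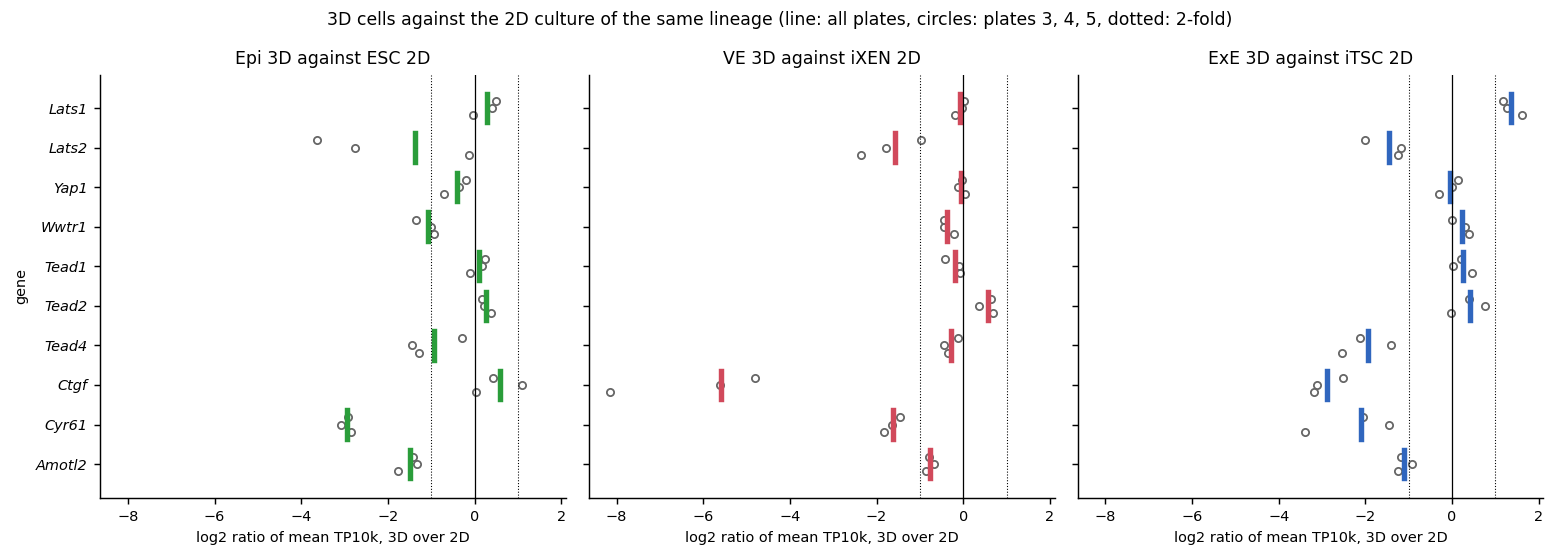
Log2 ratio of mean TP10k, 3D over 2D (x axis, shared), of each gene in the 3 lineages. Coloured lines mark the ratio over all plates, circles plates 3, 4 and 5, and dotted lines 2-fold. *Cyr61* and *Amotl2* lie to the left of 0 in all lineages and *Ctgf* in VE and ExE cells. *Ctgf* is at −5.60 in VE cells and 0.59 in Epi cells, and *Cyr61* at −2.95, −1.63 and −2.09 in Epi, VE and ExE cells. *Yap1* and *Tead1* stay between the dotted lines on every plate, with *Yap1* at −0.41 in Epi cells (−0.71 to −0.19).

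The 2D cells had more genes above 0, and the comparison was repeated in cells with 6000 to 8500 genes (33 Epi, 107 VE, 113 ExE, 20 ESC, 62 iTSC and 53 iXEN cells), in which the medians still ran from 6321 to 8188.5. There *Cyr61* was 0.0249 TP10k in Epi cells and 0.326 in ESC, and 0.373 in ExE cells and 1.51 in iTSC. Between VE (0.736) and iXEN cells (1.2) it no longer passed 2-fold, and neither did *Lats2* (0.0531 and 0.0939). *Amotl2* in Epi cells (0.494) likewise came within 2-fold of ESC (0.672), and in ExE cells (0.7) it stayed below iTSC (1.67). *Ctgf* in VE cells was 0.0517 against 1.31 in iXEN cells.

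**Figure D3:**
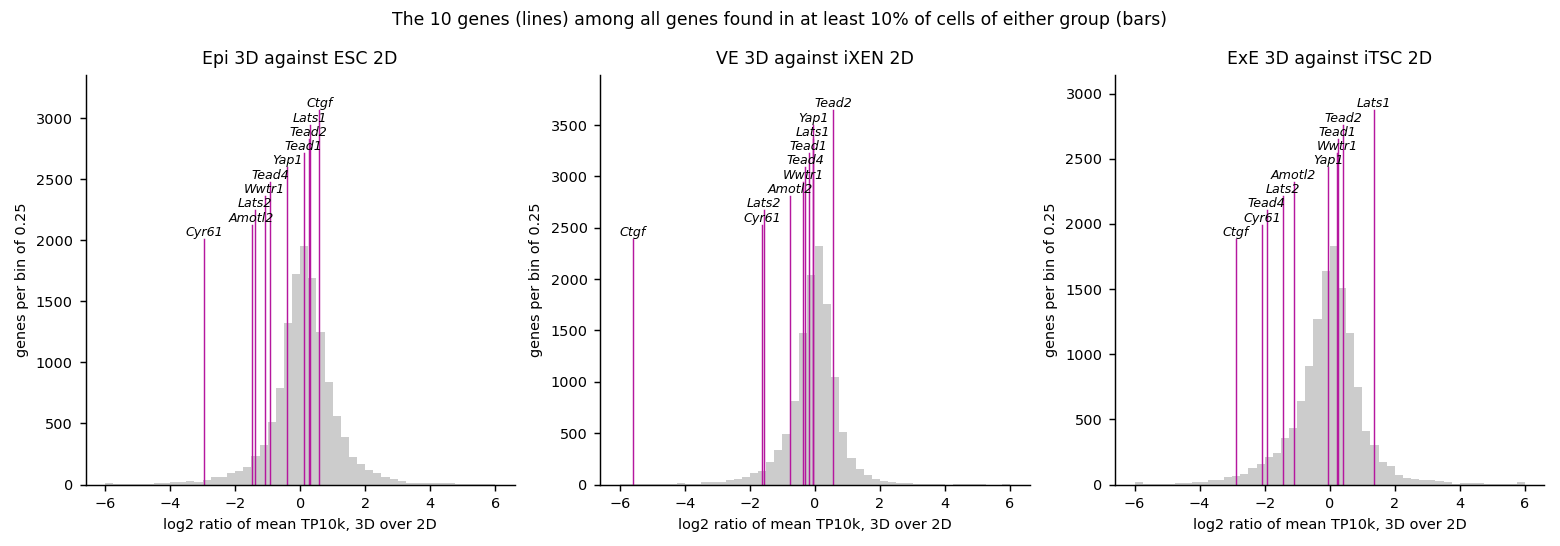
Number of genes (y axis) per bin of 0.25 of the log2 ratio of mean TP10k, 3D over 2D (x axis), for all genes found in at least 10% of cells of either group (grey bars, ratios beyond 6 in the outer bins). Lines mark the 10 genes. The grey bars centre near 0, and *Cyr61* lies at −2.95, −1.63 and −2.09 and *Lats2* at −1.38, −1.58 and −1.45 in the Epi, VE and ExE panels.

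In 3D, few cells had *Ctgf* at all, which limits how many could hold it with the other targets. Of the 26 VE cells with *Ctgf*, 22 also had *Cyr61* and 23 had *Amotl2*. These counts were 10 and 45 of 88 Epi cells, and 12 and 24 of 31 ExE cells. *Cyr61* and *Amotl2* were both above 0 in 153 of 315 VE cells. Of *Ctgf*, *Cyr61* and *Amotl2*, none was above 0 in 47.8% of Epi cells (42.1 to 53.5%), 12.7% of VE cells (9.23 to 16.9%) and 28% of ExE cells (23.4 to 33%). All 3 were above 0 in 2.55%, 6.35% and 3.12%. In 2D all 3 were found in 49.3% of ESC (40.8 to 57.8%), 48.9% of iTSC (40.4 to 57.5%) and 58.2% of iXEN cells (49.6 to 66.4%). In the cells with 6000 to 8500 genes the shares with all 3 were 6.06% of Epi, 14% of VE and 5.31% of ExE cells, and 30%, 43.5% and 49.1% of ESC, iTSC and iXEN cells.

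**Figure D4:**
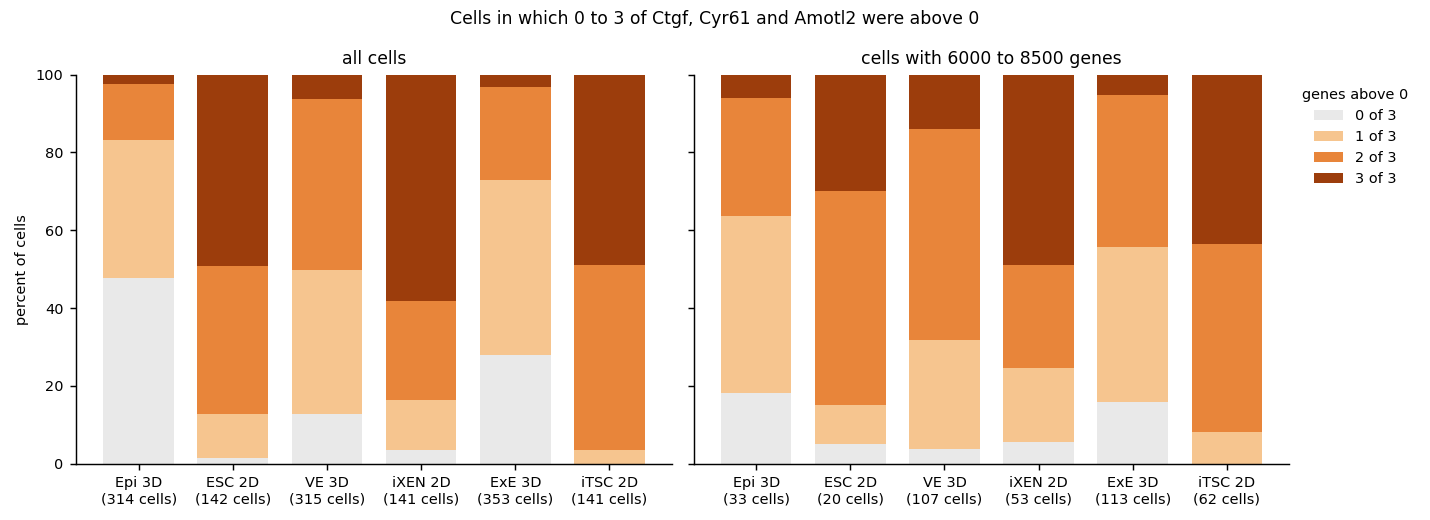
Percent of cells (y axis) in which 0, 1, 2 or 3 of *Ctgf*, *Cyr61* and *Amotl2* were above 0, in each group, for all cells (left) and for cells with 6000 to 8500 genes (right). In both panels the darkest part (all 3 genes) is larger in each 2D culture than in the 3D block of its lineage, for example 58.2% of iXEN against 6.35% of VE cells.

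Across iXEN cells the targets moved together. Spearman's rho over the 141 cells was 0.63 for *Ctgf* and *Cyr61*, 0.61 for *Ctgf* and *Amotl2* and 0.60 for *Cyr61* and *Amotl2*, and for *Lats2* with *Ctgf*, *Cyr61* and *Amotl2* it was 0.33, 0.42 and 0.40. Pair by pair, the other groups had weaker relations. For *Ctgf* and *Cyr61* rho was 0.22 in ESC, 0.07 in iTSC, 0.04 in Epi, 0.19 in VE and 0.06 in ExE cells, and 10 Epi, 22 VE and 12 ExE cells had both above 0. For *Cyr61* and *Amotl2* it was 0.33 in ESC, 0.04 in iTSC, 0.10 in Epi, 0.20 in VE and 0.14 in ExE cells. In the 53 iXEN cells with 6000 to 8500 genes rho was 0.53 for *Ctgf* and *Cyr61*, 0.63 for *Ctgf* and *Amotl2* and 0.54 for *Cyr61* and *Amotl2*, and for *Lats2* it was lower, at 0.19, 0.34 and 0.20. These values describe cells of 1 culture that share a plate and a scaling, and most 3D cells were at 0 for *Ctgf*.

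**Figure D5:**
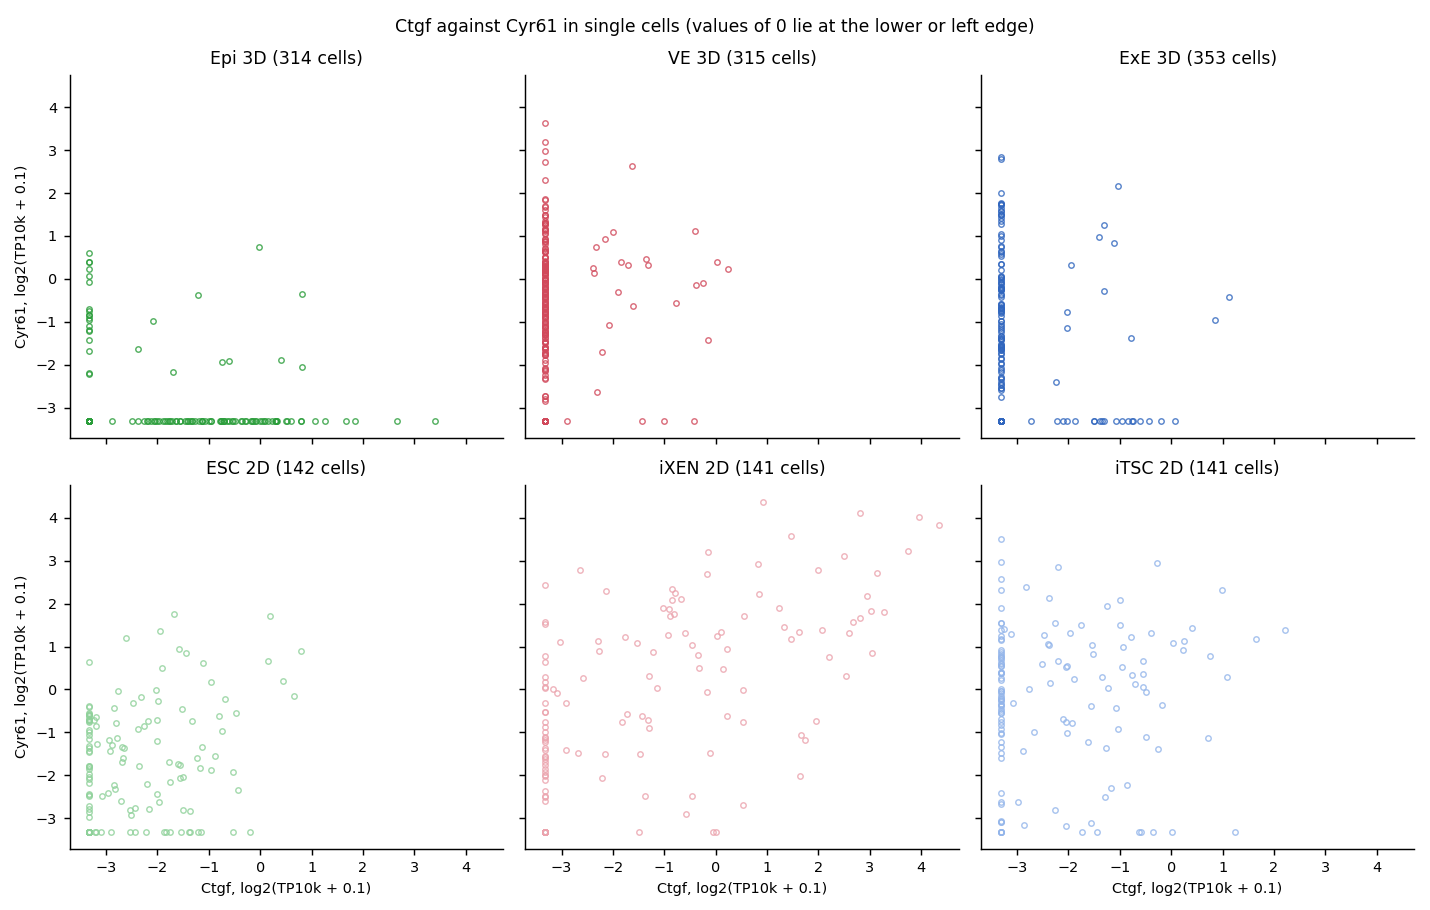
Each circle is 1 cell, with *Ctgf* on the x axis and *Cyr61* on the y axis, both as log2(TP10k + 0.1), so that a value of 0 lies at the lower or left edge. In Epi cells the circles follow either edge, with 10 of 314 cells above 0 for both, and in iXEN cells 82 of 141 are above 0 for both and run from lower left to upper right.

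The summed level of the 3 targets in iXEN cells also moved with *Ankrd1*, another YAP target (rho 0.60), with immediate early genes (0.52) and with actin and SRF target genes (0.50), and not with *Yap1* (−0.07) or *Wwtr1* (0.04). With the number of genes above 0 rho was 0.06. In iTSC the same 3 measures gave 0.08, 0.20 and 0.20, and in VE cells 0.14, 0.22 and 0.12. Between *Yap1* and the summed targets over all cells, rho was highest in ESC, at 0.195. Over all 45 pairs of the members, the median rho was between 0.01 and 0.08 in the 6 groups.

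Over 12 points (the 3 blocks on 3 plates and the 3 cultures), the gene most like *Cyr61* among 14183 genes was *Amotl2*, with Pearson's r of 0.96 on log2(mean TP10k + 0.1). For *Amotl2*, *Tmem97* (0.97) came first and *Cyr61* second. *Tead4* was most like *Pard6b* (0.95), a polarity gene. *Lats2* was nearest to *Nppb* (0.95), *Wwtr1* to *Snx3* (0.98), *Yap1* to *Glis2* (0.94), *Tead1* to *Ptpra* (0.94), *Tead2* to *Acly* (0.94), *Lats1* to *Atp6ap2* (0.90) and *Ctgf* to *Dscaml1* (0.89). *Ctgf* and *Cyr61* had r of 0.23. The plates of a block share a pool, so the 12 points are not independent.

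The rest of the pathway was read from 3 lists. Of 16 upstream components (*Nf2*, the MST kinases *Stk3* and *Stk4*, their partners and related kinases), 1 was lower and 1 higher in Epi cells than in ESC, 1 and 1 in ExE cells than in iTSC, and 0 and 1 in VE than in iXEN cells. None of these counts stands clear of the shares of all genes given above, 9.21% and 11.1%, 14.5% and 10.2%, and 8.92% and 4.38% in the same order. *Stk38l*, a kinase related to LATS, was higher in ExE cells (3.1-fold) and in VE cells (2.13-fold). *Taok3*, an upstream kinase, was 5.29-fold higher in Epi cells than in ESC. *Nf2*, the tumour suppressor that recruits LATS to the membrane, passed 2-fold in none of these 3, although within 3D it was 3.04-fold higher in Epi than in VE cells. The median log2 ratio of this list, 3D over 2D, was −0.06 for Epi, 0.46 for ExE and 0.11 for VE.

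Of the 13 measured regulators and partners of YAP and TEAD, 1 was lower and 2 were higher in Epi cells, 6 and 1 in ExE cells, and 1 and 0 in VE cells. Beside 9.21% and 11.1%, 14.5% and 10.2%, and 8.92% and 4.38% of all genes, the 6 lower of 12 tested in ExE cells was the count farthest from its background. *Vgll4*, which competes with YAP for TEAD, was lower in all of the 3, by 4.88-fold, 5.04-fold and 2.8-fold in Epi, ExE and VE cells. *Ptpn14* and *Amotl1*, which bind YAP, were lower in ExE cells by 3.61-fold and 2.64-fold, and *Amot* was 6.5-fold higher there. All 6 VE markers tested were also higher in ExE cells than in iTSC, with their sum at 1.44 and 0.2 TP10k, and the part of the 54 cells led by VE markers in the *Amot* value was not tested. *Amot* followed the endoderm, with 0.843 TP10k in VE and 0.893 in iXEN cells against 0.00937 in Epi cells and 0.003 in ESC. The medians were −0.06, −0.68 and −0.47 in Epi, ExE and VE cells.

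By their median, the 22 further YAP targets were lower in 3D, as *Cyr61* was, in VE cells and not in Epi or ExE cells. Of those tested, 3 of 16 were lower and 3 higher in Epi cells than in ESC, 2 of 13 and 4 in ExE cells, and 5 of 15 and 1 in VE cells, with medians of 0.19, 0.10 and −0.51. The share of all genes lower and higher was 9.21% and 11.1%, 14.5% and 10.2%, and 8.92% and 4.38%, so that the 2 of 13 in ExE cells lay at the background. The 5 of 15 lower in VE cells and the 4 of 13 higher in ExE cells were the counts farthest above it. *Fstl1*, a secreted glycoprotein, was higher in 3D in all lineages, by 4.77-fold, 3.46-fold and 2.47-fold in Epi, ExE and VE cells. *Gadd45a*, a gene of the DNA damage response, was 8.69-fold higher in Epi cells than in ESC. *Ankrd1* was above 0 in 77 of 141 iXEN cells and in 4 of 315 VE cells, 95.2-fold lower in the mean. It was at 0 in all 314 Epi and all 353 ExE cells. *Nuak2*, *Crim1* and *Myof* were also lower in VE than in iXEN cells, by 76.2-fold, 3.19-fold and 3.04-fold.

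Within the VE block, 79 cells with *Nodal* or *Lefty1*, genes of the anterior VE and its inducing signal, were set beside 236 cells with neither. *Cyr61* was 0.382, 0.646 and 0.311 TP10k with them and 0.884, 0.664 and 0.664 without, lower on each plate and by 1.66-fold in all. *Wwtr1* (1.4-fold) and *Lats2* (2.08-fold) were also lower on each plate, and *Tead2* was 1.17-fold higher. *Lats2* rests there on 9 and 36 cells above 0. *Yap1* (0.347 and 0.323) and *Tead1* (0.332 and 0.315) did not keep 1 direction over the plates.

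Lists of other cell types and responses were summed beside the targets. Fibroblast markers averaged between 0.0137 and 0.0615 TP10k in all groups. Immediate early genes, which cells switch on within minutes of a stimulus or dissociation, summed to 3.78, 3.47 and 3.91 in Epi, VE and ExE cells and to 3.13, 4.7 and 3.81 in ESC, iTSC and iXEN cells. Actin and SRF target genes summed to 3.63, 2.25 and 8.67 in 3D and to 4.7, 6.94 and 3.94 in 2D. This order was not that of *Ctgf*. VE cells were lowest in both, but ExE cells, with *Ctgf* at 0.0386 TP10k, had the highest sum. iXEN cells, highest in *Ctgf* (1.41), had the lowest sum in 2D. Gene by gene, 4 of 8 tested of this list were lower in Epi cells than in ESC, beside 9.21% of all genes. In ExE cells 0 of 7 were lower than in iTSC, beside 14.5%. In VE cells 5 of 7 were lower than in iXEN cells, beside 8.92%. In each comparison 0 were higher, beside 11.1%, 10.2% and 4.38%. Parietal endoderm markers summed to 118 in VE and 154 in iXEN cells and to between 1.49 and 8.25 elsewhere. Giant cell markers summed to 1.29 in ExE cells and 1.93 in iTSC, of which *Hand1* alone held 0.838 and 1.9. In both groups 4 of these 6 markers were found in under 5% of cells. The part of these lists in the differences of the targets was not tested.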

How the data were processed

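The authors made SMART-seq2 libraries of sorted single cells, demultiplexed them with bcl2fastq 2.20, pseudoaligned the reads with kallisto to GRCm38 (Gencode vM16) and left out pseudogenes and mitochondrial and ribosomal genes. The authors deposited TPM per gene and cell, for 20999 genes in 1931 wells, of which 39 hold no values. TPM carry no read number, so depth is unknown and the number of genes above 0 takes its place.

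From the deposited TPM, cells in which 2500 or more genes had a value above 0 were retained and rescaled to 10000 per cell (TP10k). Groups were compared by the ratio of mean TP10k over genes found in at least 10% of cells of either group. A gene passed at 2-fold or more with, for 3D, the same direction on plates 3, 4 and 5. No test was used, because each group is 1 sample. Shares have exact Clopper-Pearson 95% intervals, which cover the counting of cells only. They take the cells of a pool or culture as independent and leave out the spread between pools or cultures. SMART-seq2 reads carry no molecular identifiers. The ratio rule was run on real VE cells split at random, with known changes put into some genes. Such parts share a lineage and a pool, so this run does not cover the comparisons of 3D with 2D. Gene positions are from Gencode vM21 (GRCm38).

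The 10 genes and all lists were chosen with earlier results of these data known. Besides the 10, up to 4 genes of a list with the largest ratios were named, and the 3 genes most like each in pattern were computed. *Nf2* and *Amot* within 3D were chosen after their values were seen. *Vgll3* of the lists was not analysed here. Alternatives were other minimums, scalings, folds and cell sets. Python 3.11.15, numpy 2.4.6, pandas 2.3.3 and scipy 1.17.1 were used.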

Additional observations from a re-analysis of the deposited data

Results flagged for a closer look

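*Ctgf* took different directions in the lineages. By mean TP10k, Epi cells stood above ESC on every plate (log2 ratio 0.59, plates 0.04 to 1.10), although the share of cells above 0 was lower, at 28% against 62%. By the mean, ExE cells stood below iTSC (−2.90, −3.18 to −2.51) and VE cells below iXEN cells (−5.60, −8.15 to −4.80). The log2 ratios of Epi against ESC and ExE against iTSC differed by 3.49, and those of Epi against ESC and VE against iXEN by 6.19. *Tead1* was above the 2D culture in ExE cells (0.24, plates 0.03 to 0.47) and below it in VE cells (−0.20, −0.42 to −0.08), a difference of 0.44, with neither ratio at 2-fold. These differences are listed because all plates of one lineage moved one way and all plates of the other the opposite way. None of them was tested, since each group is 1 sample and the plates are technical splits.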

How the results depend on the processing

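Of 810 recomputed log2 ratios of the members, 710 stayed close to the main value. Close meant within the SD of the plates where 3D cells took part. Between 2D cultures, whose spread is unknown, it meant within a fixed 1.5-fold. The settings share most of their cells, so these are not independent checks. The sign changed in 40, of which 20 were by the share of cells above 0, and 37 of the 40 were ratios that had not passed the rule, such as *Cyr61* in iTSC against iXEN (−0.55, and 0.33 at 6000 to 8500 genes) and *Ctgf* in Epi against ESC (0.59, and −1.14 by share). The 3 that had passed changed sign by share: *Ctgf* (0.0398) and *Amotl2* (0.0427) in ESC against iXEN, and *Lats1* in ExE against iTSC (−0.65). The number of members past the rule moved as follows. Epi against ExE gave 3 by share of cells, 3 at 6000 to 8500 genes, 8 at 1.5-fold and 3 at 3-fold. VE against ExE, with 2 in the report, gave 1 with a minimum of 4000 genes, 1 with genes counted from 1 TPM, 0 on TPM as deposited, 0 by share, 1 at 6000 to 8500 genes, 0 at 3-fold and between 1 and 2 with 1 plate left out (1 without plate 3 and 1 without plate 5). ESC against iTSC gave 1 by share, 8 at 1.5-fold and 3 at 3-fold, ESC against iXEN 1, 9 and 3, and iTSC against iXEN 0 by share, 5 in cells led by their own markers and 5 at 1.5-fold. Epi against ESC gave 7 by share and 1 at 3-fold, ExE against iTSC 3 at 3-fold, and VE against iXEN 1 at 6000 to 8500 genes. Over all genes, the number past the rule at 1.5-fold and 3-fold was 5386 and 2024 for Epi against VE, 4469 and 1471 for Epi against ExE, 4448 and 1496 for VE against ExE, 7283 and 2682 for ESC against iTSC, 7091 and 2640 for iTSC against iXEN, 4785 and 1260 for Epi against ESC, 5559 and 1635 for ExE against iTSC, 3356 and 704 for VE against iXEN, and 3281 at 3-fold for ESC against iXEN. With no filter it was 4283, 4145, 9181, 9641, 9187, 5357, 7059 and 4557 for Epi against ExE, VE against ExE, ESC against iTSC, ESC against iXEN, iTSC against iXEN, Epi against ESC, ExE against iTSC and VE against iXEN. By share of cells it was 1560, 2088, 2974, 2179, 7907, 4898 and 5078 for the same comparisons from VE against ExE on. Found in 25% of cells, it was 1704 for Epi against ExE, 2012 for ExE against iTSC and 1002 for VE against iXEN, and at 6000 to 8500 genes 4378 for Epi against ESC. The cause of these shifts was not tested. No paired analysis was possible because each group is 1 sample.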
